A study of Mus musculus with 9 samples.

Results

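The primary cilium genes are those that build and supply the single non-motile cilium through which vertebrate cells read hedgehog signals. A list of 41 such genes was taken, and a gene counted as measured where a probe set of the array carried its symbol and no other. This held for 36 of the 41, among 19147 genes measured in all. The other 5, Bbs4, Arl6, Arl13b, Gpr161 and Cep290, were not analysed here. Where a gene had several probe sets, the one with the highest mean log2 intensity over all 9 arrays stood for it.

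The arrays were made from total RNA of whole cerebella of C57BL/6 mice at postnatal day 5, with 1 array per mouse. The 3 groups were SmoA2 mutants, Smo/Smo mutants and wild type, with 3 arrays each. SmoA2 mice carry an activated form of Smoothened, the membrane protein that relays the hedgehog signal, under a fragment of the Neurod2 (ND2) promoter that is active in granule neuron precursors of the cerebellum. The design text names a similar transgenic line with the SmoA1 mutation. Smo/Smo is a name known from the field for mice homozygous for the SmoA1 transgene, but the sample labels do not say that these mice are. Animal codes of the Smo/Smo mice begin differently from those of the SmoA2 and wild type mice, so in Smo/Smo the origin of the animals and the mutation cannot be told apart.

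In vertebrates, hedgehog binding lets Smoothened gather in the primary cilium, where it changes the processing of the Gli transcription factors. Cilia are assembled by intraflagellar transport (IFT), in which kinesin motors carry IFT-B particles outward and a dynein carries IFT-A particles back. The BBSome, a coat of Bardet-Biedl syndrome proteins, moves membrane proteins in the cilium, and the transition zone at its base controls entry. Granule neuron progenitors carry a primary cilium and need it to divide in response to Sonic hedgehog.

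A minority of the promoters of these genes held a sequence feature that the list was not built on. RFX transcription factors, which switch on cilium genes in many animals, bind the X-box, a pair of inverted half-sites. A relaxed form of it, GTNNCC and GNAAC with 3 bases between them (N is any base), was searched on both strands of RefSeq promoter windows of assembly GRCm38.p6, which run from 250 bases before to 50 bases after the start site. Of the 38 listed genes with a window, 7 held the form (18.4%), against 2.49% of 27025 genes. It was also in 8 of 60 other cilium genes with a window (13.3%). A match is a description of letters and not a site of binding. The 7 matches are shown because the form was more frequent in the listed genes than in all genes, with the match in capitals and up to 8 bases on each side, read 5′ to 3′ along the strand of the gene.
Ift57 (chr16:49699199-49699228, plus strand): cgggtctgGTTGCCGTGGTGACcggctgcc
Bbs1 (chr19:4906605-4906634, minus strand): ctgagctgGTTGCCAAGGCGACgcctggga
Bbs4 (chr9:59353464-59353493, minus strand): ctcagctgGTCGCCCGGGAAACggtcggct
Bbs7 (chr3:36613489-36613518, minus strand): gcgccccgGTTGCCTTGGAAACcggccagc
Mks1 (chr11:87853183-87853212, plus strand): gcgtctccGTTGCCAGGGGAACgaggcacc
Tctn1 (chr5:122264411-122264432, minus strand): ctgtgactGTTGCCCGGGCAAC
Tctn2 (chr5:124598679-124598708, plus strand): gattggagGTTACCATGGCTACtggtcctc
In Bbs7, Mks1 and Tctn1 the form reads on both strands. The matches begin between 121 bases before the start site, in Bbs7, and base 37 after it, in Tctn1. The Gli form GACCACCCA was in none of the 38 windows, against 0.289% of all genes, which says only that these letters are not there.

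Values are log2 intensity, and array medians lay between 91 and 95.1 on the linear scale. As an indication of background, Y-linked genes read up to 5.57 log2 in females. Of the 36 cilium genes only Ift57 had a mean within that range over all 9 arrays. None of 11 choroid plexus markers was called in any comparison. Over all genes 2.69% were called in SmoA2 and 0.371% in Smo/Smo against wild type, and 2.56% between the mutants. Yet all 11 markers were higher than wild type without overlap in both mutants (19.1% and 15.9% of all genes did not overlap). Their median log2 fold change was 1.43 in SmoA2 and 1.72 in Smo/Smo. In limma, 10 and 9 of the 11 had an unadjusted p under 0.05 (14.8% and 8.77% of all genes). The 11 markers had mean log2 levels per array of 9.01 to 9.26 in SmoA2 and 9.30 to 9.57 in Smo/Smo, against 6.26 to 8.54 in wild type, where replicate 3 was lowest. In SmoA2 against wild type, 4 of 10 granule neuron progenitor markers were called higher and none lower (0.961% and 1.73% of all genes). Gli1 and Ptch1, which the hedgehog pathway itself induces, were among the 4 called. The markers did not move as a set, as 6 of the 10 were above 0 and 4 below. Their log2 fold changes ran from -0.24 to 0.96, and 9 of the 10 did not overlap wild type (19.1% of all genes). Mean log2 levels of the 10 per array were 11.55 to 11.66 in SmoA2, 11.46 to 11.52 in Smo/Smo and 11.33 to 11.41 in wild type. None of these 10 was called in Smo/Smo against wild type. There 8 of the 10 were above 0, and 2 had an unadjusted p under 0.05 in limma (8.77% of all genes). The part of these markers in the cilium gene values was not tested. Transthyretin (Ttr), the defining marker of that epithelium, was 4.95 in wild type replicate 3 and at least 11.3 in the other 8 arrays. In wild type replicate 3 the median deviation of the 36 cilium genes from their own means was -0.016, the lowest of the 9 arrays, of which the highest was 0.014 in Smo/Smo replicate 2. The mean log2 level of the 36 was also lowest there, at 9.01, against 9.03 to 9.07 in the other 8 arrays, and the part of choroid plexus RNA in this was not tested. SmoA2 replicate 3 had the lowest array weight, 0.386, and held the highest value of 9 and the lowest of 6 of the 36 genes. In RNA of whole cerebella, fewer cells of a type and less RNA per cell cannot be told apart.

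The transcripts of the cilium differed little in SmoA2 cerebella, the comparison that asks what changes in the line the study set out to characterise. None of the 36 genes passed the test against wild type (limma, adjusted p under 0.05 over all genes), where 2.69% of all genes did (0.961% higher and 1.73% lower). At an unadjusted p under 0.05 in limma there were 2, Ift172 and Evc, against 14.8% of all genes. The log2 fold changes lay between -0.16 and 0.17, with a median of 0.022, and 0.0059 over all genes. For all 36 the 95% interval of the log2 fold change, taken gene by gene, lay within 0.5 either side of 0 (1.41-fold), a span picked after the values were seen, and this held for 85.0% of all genes. In the same arrays 2 genes induced by the hedgehog pathway were higher, as Gli1, a transcription factor, had a log2 fold change of 0.50 ± 0.07 (SE, adjusted p = 0.00801) and Ptch1, the receptor, 0.26 ± 0.05 (adjusted p = 0.0371). Smo gave -0.17 ± 0.11 (adjusted p = 0.545).

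In Smo/Smo cerebella 1 of the 36 passed against wild type, where 0.371% of all genes did (0.214% higher and 0.157% lower). It was Ift46, higher on the probe set that stood for it, while its other probe set moved the opposite way. The other 35 had log2 fold changes between -0.17 and 0.099, with adjusted p of at least 0.648 in limma, and none had an unadjusted p under 0.05 (8.77% of all genes did). All 35 had intervals within 0.5 of 0, and that of Ift46 reached 0.57. Unused probe sets of these 35 genes gave log2 fold changes of -0.18 (Evc2) to 0.21 (Ofd1). None was called, though those of Kifap3 (0.15) and Ofd1 had an unadjusted p under 0.05 in limma. The difference between the mutants was tested by SmoA2 against Smo/Smo. There too Ift46 was the 1 gene of 36 called, lower in SmoA2 on the same probe set, against 2.56% of all genes (1.02% higher and 1.54% lower). Ift172 joined it at an unadjusted p under 0.05 in limma (14.3% of all genes). Both mutants were set against the same wild type arrays. In Smo/Smo against wild type, Gli1 had a log2 fold change of 0.081 ± 0.073 (limma adjusted p = 0.825) and Ptch1 one of 0.080 ± 0.053 (adjusted p = 0.741).

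**Figure D1:**
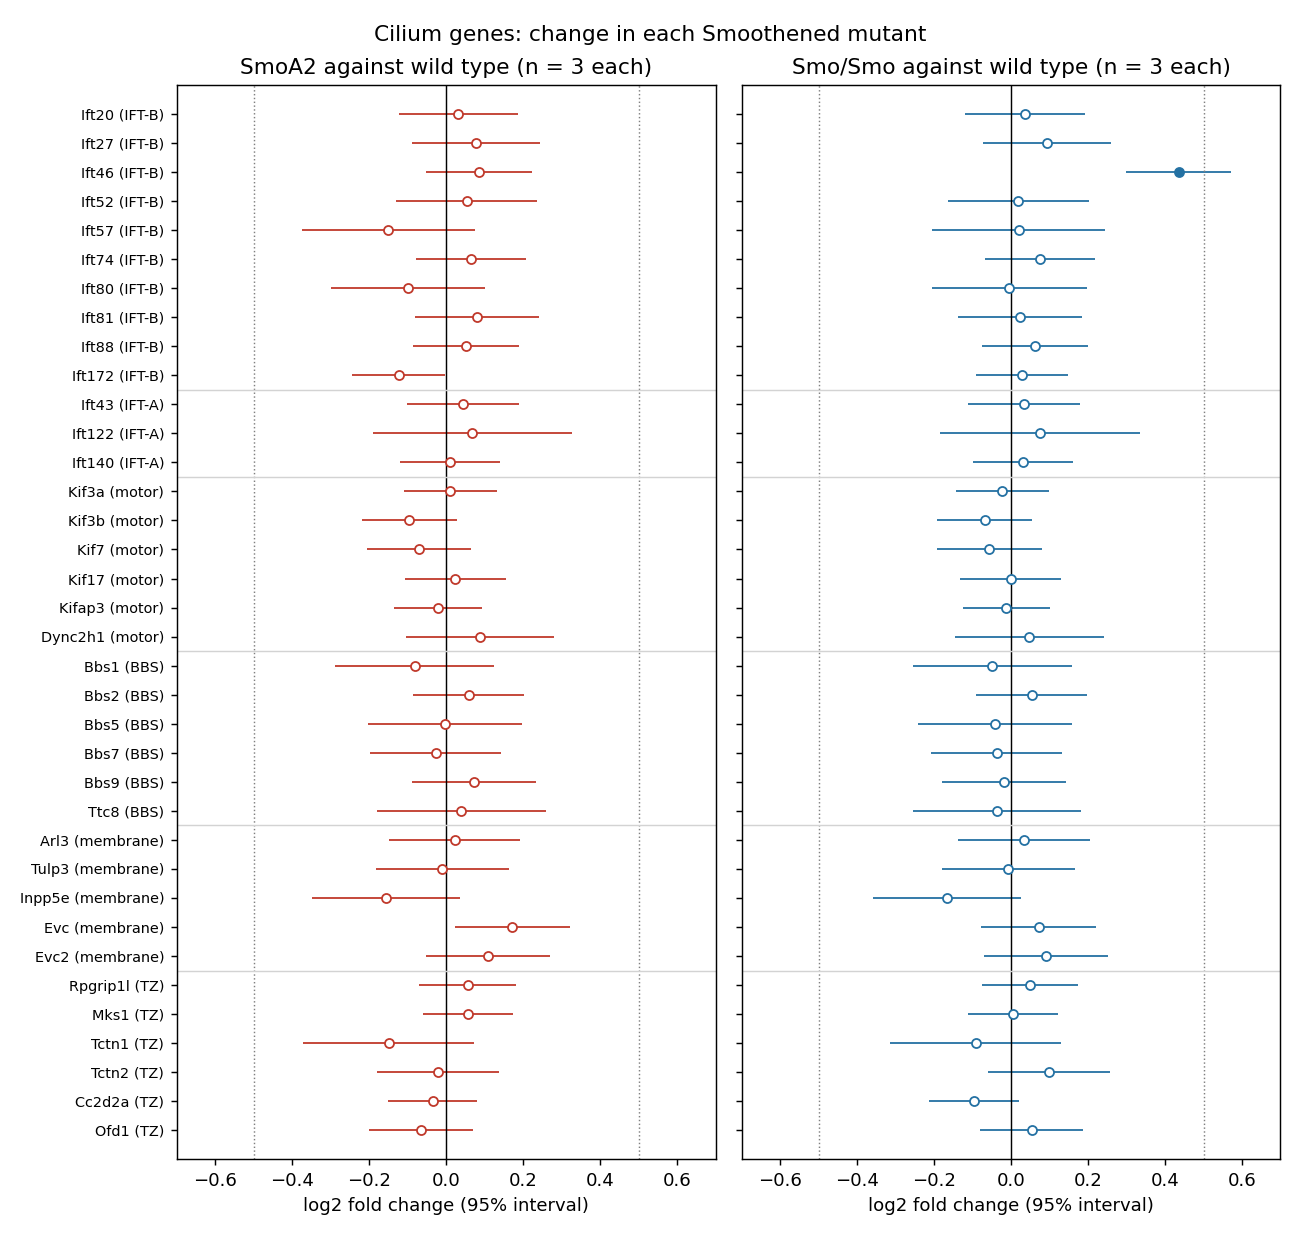
Log2 fold change of the 36 measured cilium genes against wild type, in SmoA2 (left panel) and Smo/Smo (right panel), with 3 arrays per group. Circles are estimates, bars are 95% intervals from limma, filled circles passed the test, and dotted lines stand at 0.5 either side of 0; TZ is the transition zone. All but Ift46 in Smo/Smo are open circles close to 0.

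IFT-B particles carry cargo to the tip of the cilium, and Ift46 is a subunit needed for the particle to be stable, as known from the alga Chlamydomonas. On the probe set that stood for it (100103785), Ift46 had 9.94, 10.11 and 10.04 log2 in Smo/Smo, against 9.56, 9.64 and 9.59 in wild type. All 3 Smo/Smo arrays lay above all 3 of wild type. The SmoA2 arrays, at 9.67, 9.69 and 9.68, lay between the other groups and overlapped neither. On this probe set Ift46 was thus 1.35-fold higher in Smo/Smo than in wild type (log2 fold change 0.44 ± 0.06, SE, n = 3 per group, limma adjusted p = 0.0208). In SmoA2 against Smo/Smo the log2 fold change was -0.35 ± 0.06 (limma adjusted p = 0.0198), and against wild type it was 0.08 ± 0.06 (adjusted p = 0.576).

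The other probe set of Ift46 (100090896) moved the opposite way in Smo/Smo. It read 7.24, 7.13 and 7.0 log2 in SmoA2, 6.30, 5.63 and 6.09 in Smo/Smo, and 7.03, 7.03 and 6.97 in wild type. All 3 Smo/Smo arrays lay below the other 6. With every probe set tested, it was 2.01-fold lower in Smo/Smo than in wild type (log2 fold change -1.01 ± 0.15, limma adjusted p = 0.0252), where 0.351% of all probe sets were called. Between SmoA2 and Smo/Smo its log2 fold change was 1.12 ± 0.15 (adjusted p = 0.00613, 2.12% of all probe sets called). Between SmoA2 and wild type it was 0.11 ± 0.15 (adjusted p = 0.790, 2.28% called). The platform annotation ties this dimmer probe set to a RefSeq mRNA of the gene and the brighter one to another GenBank record. No probe sequences were at hand, so which part of the transcript each reads is not known here, and the direction of Ift46 as a gene is not settled. With the mean of both probe sets, the log2 fold change was -0.29 in Smo/Smo against wild type (adjusted p = 0.236) and 0.38 in SmoA2 against Smo/Smo (adjusted p = 0.0317).

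Most of these calls were lost when some single arrays were left out, while the fold changes stayed of like size. On the brighter one, the call against wild type was lost in 5 of 9 fits that left out 1 array, which dropped any one of the wild type arrays or array 2 or 3 of Smo/Smo (limma adjusted p up to 0.109). The log2 fold change was 0.39 to 0.48 over the 9 fits. The call between the mutants was lost in 3 of 9, which dropped array 1 of SmoA2 or array 2 or 3 of Smo/Smo (adjusted p up to 0.0890), with log2 fold changes of -0.40 to -0.31 over the 9 fits. On the dimmer one, 5 of 9 fits lost the call against wild type, which dropped any one of the wild type arrays, array 2 of SmoA2 or array 3 of Smo/Smo (adjusted p up to 0.127), with log2 fold changes of -1.15 to -0.82. Its call between the mutants was lost in none of the 9 (adjusted p up to 0.0305), at 0.93 to 1.27. None of the 20 measured genes nearest Ift46 on chromosome 9, 10 on each side, was called in Smo/Smo against wild type, with log2 fold changes of -0.17 to 0.22. Between SmoA2 and Smo/Smo 2 of the 20, Phldb1 and Scn2b, were called (2.56% of all genes). There the log2 fold changes of the 20 ran from -0.79 to 0.31. The same 2 genes were called in SmoA2 against wild type (2.69% of all genes).

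**Figure D2:**
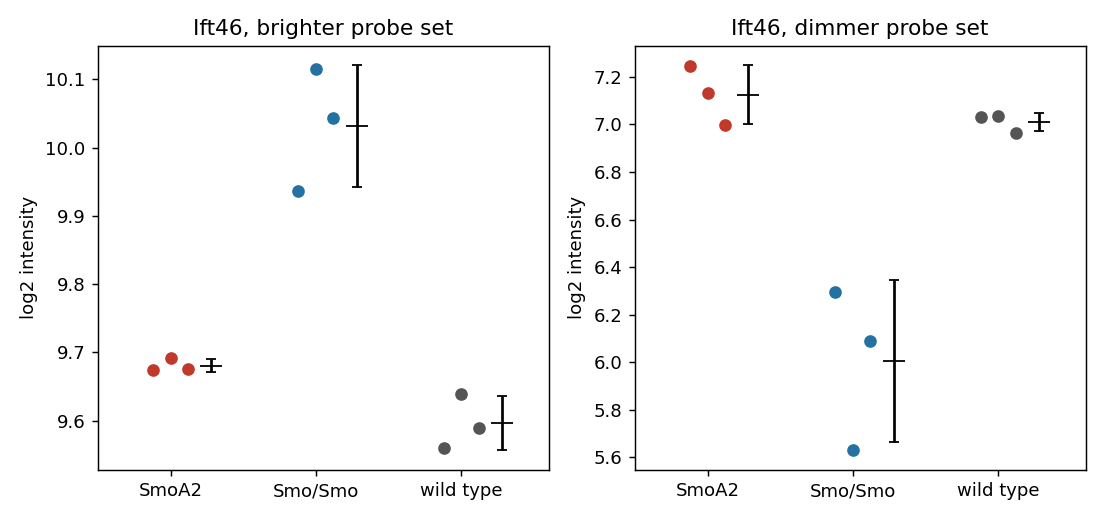
Log2 intensity of the 2 probe sets of Ift46 in each array, with SmoA2, Smo/Smo and wild type from left to right. Points are arrays and the bar beside them is the mean with the SD (n = 3). Smo/Smo is highest on the brighter probe set, at 9.94 to 10.11, and lowest on the dimmer one, at 5.63 to 6.30.

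The 250 bases before the start site of Ift46 are shown as it was the only cilium gene called. They lie on the plus strand at chr9:44772759-44773008 (GRCm38.p6, RefSeq) and hold neither of the forms searched.
Ift46 upstream: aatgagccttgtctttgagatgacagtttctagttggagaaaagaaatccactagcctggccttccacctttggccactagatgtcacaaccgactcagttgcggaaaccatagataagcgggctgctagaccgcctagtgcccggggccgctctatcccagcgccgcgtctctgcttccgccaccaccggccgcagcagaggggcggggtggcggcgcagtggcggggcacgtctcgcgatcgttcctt

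The other 9 IFT-B genes were not called in any of the 3 comparisons. Ift172, a peripheral subunit that interacts with the tip of the cilium, had 8.13, 8.15 and 8.22 log2 in SmoA2, 8.34, 8.29 and 8.32 in Smo/Smo, and 8.27, 8.32 and 8.27 in wild type. The SmoA2 arrays lay below the other 6. The log2 fold change was -0.12 ± 0.05 against wild type (limma adjusted p = 0.317) and -0.15 ± 0.05 against Smo/Smo (adjusted p = 0.215). Groups failed to overlap in 8 of the 36 cilium genes between SmoA2 and wild type (19.1% of all genes), in 4 between Smo/Smo and wild type (15.9%) and in 4 between SmoA2 and Smo/Smo (18.2%). Ift57 read 5.25, 5.55 and 5.51 in SmoA2, 5.52, 5.52 and 5.78 in Smo/Smo, and 5.61, 5.63 and 5.52 in wild type, at or near the top of the background range. Ift88, whose loss removes cilia in the mouse, had means of 8.48 ± 0.059 in SmoA2, 8.49 ± 0.019 in Smo/Smo and 8.43 ± 0.079 in wild type (SD, n = 3 each). The 95% interval of its log2 fold change was -0.087 to 0.19 in SmoA2 and -0.076 to 0.20 in Smo/Smo. Ift20, Ift27, Ift52, Ift74, Ift80 and Ift81 had log2 fold changes between -0.10 and 0.094 against wild type in the 2 mutants.

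The IFT-A genes, whose particle brings cargo back and helps membrane proteins enter, gave no call. Ift122 read 7.43, 7.80 and 7.70 log2 in SmoA2, 7.77, 7.54 and 7.63 in Smo/Smo, and 7.54, 7.74 and 7.44 in wild type. The 3 groups overlapped, and the spread within a group was the widest of the 36 genes in wild type, at an SD of 0.15. Its log2 fold change was 0.068 ± 0.11 in SmoA2 and 0.075 ± 0.11 in Smo/Smo (adjusted p = 0.838 and 0.914), and its other probe sets were not called either. Ift43 had 11.24, 11.30 and 11.39 in SmoA2, 11.38, 11.28 and 11.24 in Smo/Smo, and 11.25, 11.32 and 11.23 in wild type, with full overlap. Ift140 differed from wild type by 0.0097 ± 0.058 in SmoA2 and 0.031 ± 0.058 in Smo/Smo on the log2 scale.

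The motors gave no call in any comparison. Kif3a, Kif3b and Kifap3 form the kinesin that drives outward transport, and mouse granule neuron progenitors without Kif3a fail to expand. Kif3a had means of 10.27 ± 0.059 log2 in SmoA2, 10.24 ± 0.0036 in Smo/Smo and 10.26 ± 0.024 in wild type (SD, n = 3 each). Kif3b read 10.12, 10.06 and 10.18 in SmoA2, 10.10, 10.16 and 10.17 in Smo/Smo, and 10.23, 10.20 and 10.21 in wild type. Both mutant groups lay below wild type with no overlap, with log2 fold changes of -0.096 ± 0.055 in SmoA2 and -0.068 ± 0.055 in Smo/Smo (limma adjusted p = 0.465 and 0.797). Kif7, which regulates Gli proteins at the tip, read 7.36, 7.31 and 7.32 in SmoA2, 7.27, 7.42 and 7.34 in Smo/Smo, and 7.38, 7.36 and 7.46 in wild type. The log2 fold change was -0.070 ± 0.060 in SmoA2 and -0.056 ± 0.060 in Smo/Smo. Kifap3, Kif17 and Dync2h1, the heavy chain of the returning dynein, lay between -0.022 and 0.087 on the same scale.

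Of the BBSome genes, 6 were measured and none was called. Bbs9 had 8.35, 8.35 and 8.28 log2 in SmoA2, 8.23, 8.32 and 8.15 in Smo/Smo, and 8.28, 8.34 and 8.14 in wild type. Bbs2, at the core of the complex, had 10.17, 10.21 and 10.01 in SmoA2, 10.14, 10.13 and 10.11 in Smo/Smo, and 10.03, 10.11 and 10.08 in wild type. Its SmoA2 arrays spread over those of both other groups, while Smo/Smo lay above wild type without overlap, by 0.054 ± 0.064 (limma adjusted p = 0.880). Bbs1 read 5.73, 5.63 and 5.71 in SmoA2, 5.67, 5.90 and 5.61 in Smo/Smo, and 5.88, 5.79 and 5.64 in wild type, just above the background range. The log2 fold changes of the 6 genes ranged from -0.082 to 0.072 in SmoA2 and from -0.049 to 0.054 in Smo/Smo. The widest 95% interval bounds among them were -0.29 and 0.26 in SmoA2 and -0.26 and 0.20 in Smo/Smo.

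Among the proteins that bring signalling molecules into the ciliary membrane, Evc, which binds Smoothened at the base of the cilium, read highest in SmoA2. It had 8.49, 8.32 and 8.40 log2 in SmoA2, 8.29, 8.38 and 8.24 in Smo/Smo, and 8.26, 8.26 and 8.17 in wild type. SmoA2 lay above wild type without overlap, with a log2 fold change of 0.17 ± 0.066 (limma adjusted p = 0.265), and Smo/Smo overlapped both. Its partner Evc2 gave 0.11 ± 0.072 in SmoA2 and 0.090 ± 0.072 in Smo/Smo (adjusted p = 0.542 and 0.793). Inpp5e, a phosphoinositide phosphatase of the ciliary membrane, had 9.32, 9.43 and 9.37 in SmoA2, 9.38, 9.27 and 9.45 in Smo/Smo, and 9.54, 9.68 and 9.38 in wild type. Wild type replicate 3 lay among the mutants, and the log2 fold changes were -0.16 ± 0.085 in SmoA2 and -0.17 ± 0.085 in Smo/Smo (adjusted p = 0.443 and 0.648). Arl3, a GTPase that releases lipid-bound cargo, and Tulp3, which carries receptors in with IFT-A, lay between -0.010 and 0.033 in both mutants.

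No transition zone gene was called. Ofd1, a centriole protein encoded on the X chromosome, had 9.09, 9.10 and 9.10 log2 in SmoA2, 9.25, 9.20 and 9.20 in Smo/Smo, and 9.06, 9.22 and 9.20 in wild type. SmoA2 lay below Smo/Smo without overlap (log2 fold change -0.12 ± 0.059, limma adjusted p = 0.419), and wild type spread over both. Cc2d2a, a membrane-associated protein of the zone, had 9.74, 9.70 and 9.73 in SmoA2, 9.67, 9.61 and 9.71 in Smo/Smo, and 9.76, 9.75 and 9.76 in wild type. Wild type lay above both mutants, with log2 fold changes of -0.036 ± 0.051 in SmoA2 and -0.096 ± 0.051 in Smo/Smo (adjusted p = 0.804 and 0.662). Rpgrip1l, Mks1, Tctn1 and Tctn2 had log2 fold changes of -0.15 to 0.057 in SmoA2 and -0.092 to 0.099 in Smo/Smo. The 6 measured genes with the X-box form shown above had a median log2 fold change of -0.055 in SmoA2 and -0.016 in Smo/Smo, beside 0.031 and 0.031 for the 27 measured genes with a window that lacked it. Of the 6, Ift57, Bbs1 and Bbs7 read near background, and the difference between the medians was not tested.

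**Figure D3:**
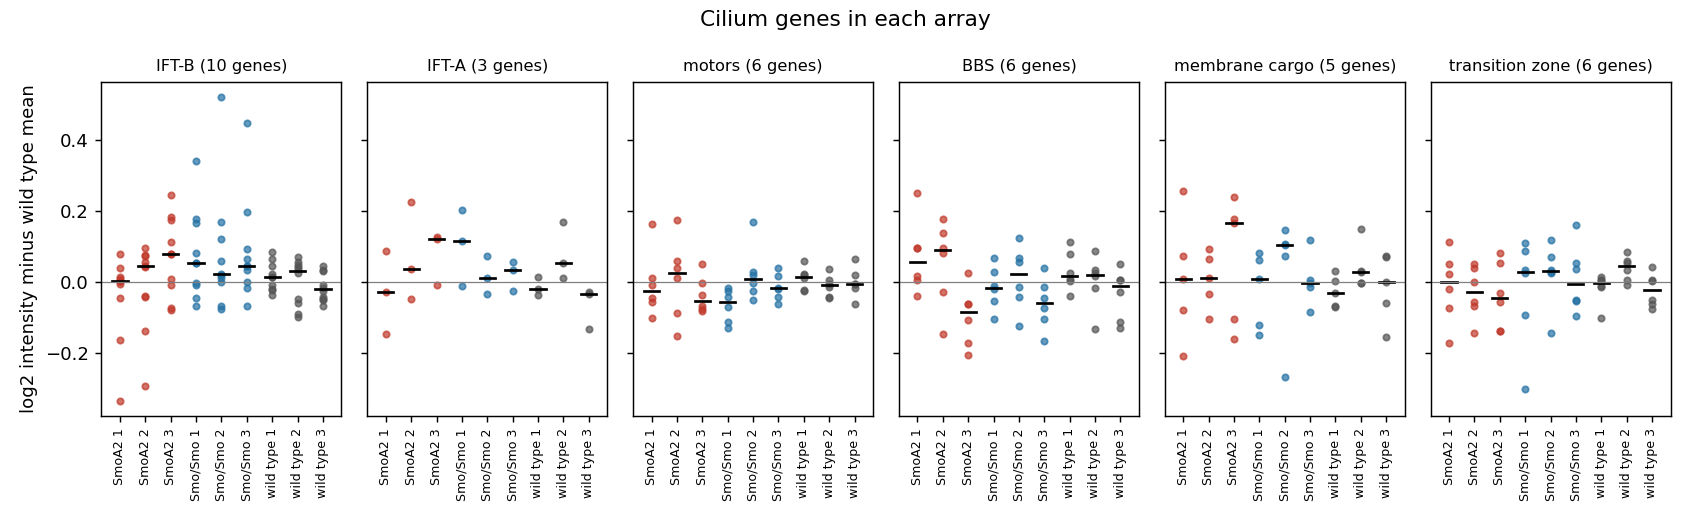
Log2 intensity of each cilium gene minus its wild type mean, by role, in each array, with SmoA2, Smo/Smo and wild type from left to right. Points are genes and black lines are medians over the genes of a role. Medians stay close to 0 in all 9 arrays, and the highest points of the IFT-B panel in Smo/Smo are Ift46.

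Other cilium genes, 71 in all, were grouped in 5 lists, and 65 were measured. In SmoA2 against wild type none rose and 1 fell, where 0.961% of all genes rose and 1.73% fell. In Smo/Smo against wild type none rose and 1 fell (0.214% and 0.157% of all genes). Between SmoA2 and Smo/Smo 1 was higher and 2 lower (1.02% and 1.54% of all genes). The medians of the log2 fold change over the 65 were 0.032, -0.012 and 0.023 in these comparisons. Among other IFT and motor subunits (13 measured), other BBS genes (5) and other transition zone and appendage genes (22) no call was made. The smallest p in SmoA2 against wild type belonged to the IFT-B subunit Cluap1 (0.15 ± 0.060, limma adjusted p = 0.295), the chaperonin-like Bbs12 (0.23 ± 0.069, 0.155) and Cep83 of the distal appendages (0.25 ± 0.068, 0.0991). In Smo/Smo they belonged to Hspb11 (0.16 ± 0.069, 0.571), Mkks (-0.17 ± 0.066, 0.503) and Iqcb1 (0.13 ± 0.063, 0.627). Between the mutants they were Dync2li1 (-0.14 ± 0.057, 0.284), Mkks (0.20 ± 0.066, 0.179) and Cep83 (0.25 ± 0.068, 0.110).

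Among 17 other ciliary regulators of hedgehog signalling, Efcab7 fell in Smo/Smo. Efcab7 anchors the Evc and Evc2 proteins near the base of the cilium. It read 8.21, 8.02 and 8.02 log2 in SmoA2, 7.16, 7.31 and 7.38 in Smo/Smo, and 8.06, 8.14 and 8.15 in wild type. The Smo/Smo arrays lay below the other 6. Efcab7 was 1.78-fold lower in Smo/Smo than in wild type (log2 fold change -0.84 ± 0.078, limma adjusted p = 0.00329), and SmoA2 stood 0.80 ± 0.078 above Smo/Smo (adjusted p = 0.00164). It had 1 probe set. None of its 20 nearest measured neighbours was called in Smo/Smo against wild type (0.371% of all genes), with log2 fold changes of -0.19 to 0.38. Between SmoA2 and Smo/Smo 1 of the 20, Ube2u, was called (2.56% of all genes), and their log2 fold changes ran from -0.53 to 0.29. In SmoA2 against wild type 1 of the 20, Pgm1, was called (2.69% of all genes). Among the 17 regulators, the smallest p in SmoA2 against wild type belonged to Dzip1l (-0.33 ± 0.085, limma adjusted p = 0.0906).

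Of 8 transcription factors and co-regulators of ciliogenesis, Mcidas, which drives the fate of multiciliated cells, fell in SmoA2. It read 5.86, 5.80 and 6.04 log2 in SmoA2, 6.61, 6.30 and 6.32 in Smo/Smo, and 6.43, 6.54 and 6.49 in wild type. Its SmoA2 values lay near the background range, which reached 5.57. All 3 SmoA2 arrays lay below the other 6, 1.51-fold lower than wild type (log2 fold change -0.59 ± 0.097, limma adjusted p = 0.0138) and -0.51 ± 0.097 against Smo/Smo (adjusted p = 0.0297). The call against wild type was lost when array 1 of SmoA2 or array 2 of wild type was dropped (adjusted p up to 0.0657), and that against Smo/Smo in 8 of 9 fits with 1 array left out (up to 0.0993), all but the one without SmoA2 replicate 3. Rfx2, an RFX factor, had 7.16, 7.15 and 7.09 in SmoA2, 7.56, 7.60 and 7.42 in Smo/Smo, and 7.59, 7.48 and 7.32 in wild type. It was lower in SmoA2 than in Smo/Smo (-0.39 ± 0.081, limma adjusted p = 0.0419), a call lost in 7 of 9 fits, which dropped any one array of a mutant or array 2 of wild type (up to 0.156). Its other probe set, within the background range, gave 0.065 ± 0.084 between the mutants (limma adjusted p = 0.810, every probe set tested). With the mean of both probe sets the Rfx2 value was -0.16 and not called (adjusted p = 0.283), and over all 20 alternatives the call was lost in 12. Against wild type Rfx2 gave -0.33 ± 0.081 (adjusted p = 0.0756), and Rfx1, Rfx3, Rfx4 and Rfx7 were not called in any comparison. In Smo/Smo against wild type the smallest p was that of Gmnc (0.93 ± 0.21, adjusted p = 0.172), which read 5.29 in wild type replicate 3.

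Genes of motile cilia were described beside Mcidas, since the same cells use them. Of 24 listed markers of multiciliated and ependymal cells, 15 were measured. Among the 15, 3 fell in SmoA2 against wild type, where 1.73% of all genes did, and none rose. The log2 fold change was above 0 in 1 of the 15, and in 52.1% of all genes. Their median log2 fold change was -0.23, beside 0.0059 for all genes. These markers had a summed level, as a mean log2 per array, of 6.40 to 6.48 in SmoA2 and 6.50 to 6.71 in Smo/Smo, against 6.57 to 6.75 in wild type. Within the background range were 4 of the 15 in each SmoA2 array, 3 or 4 in Smo/Smo and 2 or 3 in wild type. The 3 that fell, named after their values were seen, were Rsph1 of the radial spoke (-0.54 ± 0.073, limma adjusted p = 0.00545), Hydin of the central apparatus (-0.48 ± 0.080, 0.0141) and the dynein light chain gene Dynlrb2 (-0.55 ± 0.11, 0.0341). Hydin averaged 5.19 in SmoA2, within the background range. Leaving out 1 array ended the call of Hydin in 3 of 9 fits, which dropped array 1 of SmoA2 or array 1 or 2 of wild type (adjusted p up to 0.0657). It ended that of Dynlrb2 in 7 of 9, which dropped any one array of SmoA2 or wild type or array 2 of Smo/Smo (up to 0.124). Foxj1, the defining factor of motile cilia, gave -0.19 ± 0.14 (adjusted p = 0.587). None of the 15 was called in Smo/Smo against wild type (median -0.077, 9 below 0). Between SmoA2 and Smo/Smo none was called either, but 13 were below 0, the median was -0.22, and 6 had an unadjusted p under 0.05 in limma (14.3% of all genes). There Rsph1 and Dynlrb2 each passed under 3 of the 20 alternatives. In SmoA2 against wild type, Purkinje cell markers fell in 4 of 8, meningeal markers in 7 of 10 and astrocyte and Bergmann glia markers in 2 of 10, where 1.73% of all genes fell, and the part of any of these cells in the values of Mcidas and Rfx2 was not tested.

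**Figure D4:**
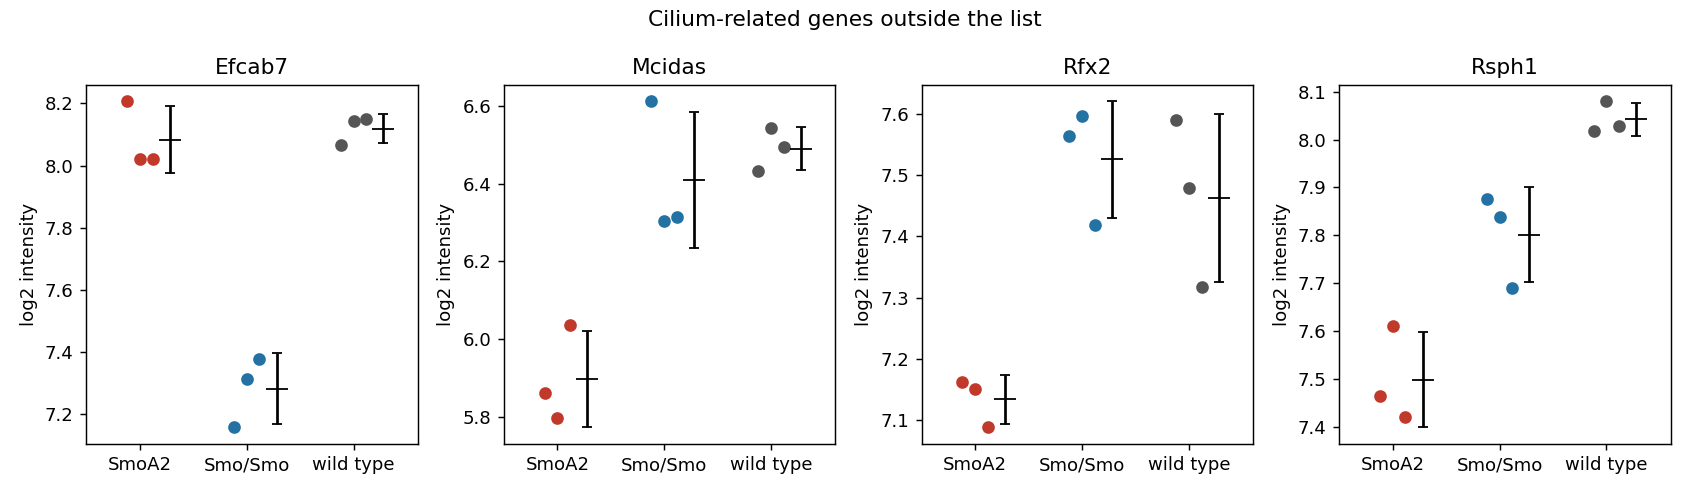
Log2 intensity of Efcab7, Mcidas, Rfx2 and Rsph1 in each array, with SmoA2, Smo/Smo and wild type from left to right. Points are arrays and the bar beside them is the mean with the SD (n = 3). Efcab7 is low in Smo/Smo, at 7.16 to 7.38, and Mcidas is low in SmoA2, at 5.80 to 6.04.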

How the data were processed

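Probe set intensity was deposited by the authors on a linear scale, from biotin-labelled cRNA on Affymetrix arrays per the labels. The submitters' processing notes name RMA, with no version given in the sources used here. The test had been planned for log2 values, so the log2 of each of 38385 values per array was taken. Platform annotation gave 24478 probe sets 1 gene symbol, 65 several and 13842 none in the table. All 19147 genes were fitted in limma 3.58.1 (R 4.3.3, lmFit and eBayes) with a mean for each of 3 groups over 9 arrays, and p-values were adjusted by Benjamini-Hochberg over all genes. Errors of fold changes are standard errors of that fit. The pipeline was tested on simulated data. Sex was read from Xist and Y-linked probe sets. Wild type replicates 1 and 3, SmoA2 replicate 1 and Smo/Smo replicate 1 were female and the other arrays male. Sex was thus not balanced between wild type and either mutant. The cilium genes and lists were chosen with earlier results of these data known. All cilium genes are accounted for; values by array are given for called genes and for the 2 or 3 of smallest F-test p per role, and other lists by called genes, else the smallest p. Sequences are from RefSeq, GRCm38.p6; Ift80, Ift81 and Ift122 had no window there. Alternatives changed the choice of probe set, low-value filter, normalization, variance model, array weights, groups fitted, sex term, threshold and arrays left out. Animals are taken as separate from their codes, the number of arrays limits the precision, and figures were drawn in matplotlib 3.10.9.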

Additional observations from a re-analysis of the deposited data

Results flagged for a closer look

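Between SmoA2 and Smo/Smo, the fitted test of the difference called 4 cilium-related genes, among the 36 listed and 65 other cilium genes measured. Over all genes 2.56% were called. Ift46 had a log2 fold change of -0.35 on its brighter probe set, and its dimmer probe set gave 1.12. Efcab7 had 0.80, with SmoA2 higher. Mcidas had -0.51 and Rfx2 -0.39, with SmoA2 lower in both. The other probe set of Rfx2 gave 0.065 and was not called, and the mean of both gave -0.16. In the 9 fits that left out 1 array, the call was lost in 8 for Mcidas, 7 for Rfx2 and 3 for Ift46 on its brighter probe set. It was lost in none for Efcab7. No cause was tested for any of the 4 genes.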

How the results depend on the processing

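The 35 cilium genes other than Ift46 were called in none of the 3 comparisons under any of the 20 alternatives. Their lowest adjusted p was 0.0840, for Ift172 between SmoA2 and Smo/Smo. The number of cilium genes called in SmoA2 against wild type was 0 under all 20. In Smo/Smo against wild type it was 0 with the mean of all probe sets, with only the 2 groups compared, with sex as covariate, at an adjusted p under 0.01 and without the pair of arrays SmoA2 replicate 3 and wild type replicate 3, and 0 to 1 over the fits that left out 1 array. Between SmoA2 and Smo/Smo it was 0 with only the 2 groups compared, at the stricter threshold and without that pair, and 0 to 1 over the fits that left out 1 array. Ift46 changed sign with the mean of its probe sets (-0.29 in Smo/Smo against wild type and 0.38 between the mutants), as its probe sets oppose each other. Over all alternatives its adjusted p was 0.00386 to 0.236 against wild type and 0.00504 to 0.0890 between the mutants. The filter on low values left out Mcidas, Hydin, Ift57, Bbs1 and Bbs7. No paired analysis was possible because the labels number animals and not pairs across groups. Signal near background limits Ift57, Bbs1, Bbs7, Mcidas, Hydin and the dimmer Ift46 probe set.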
